A study of Mus musculus with 12 samples.

Results

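The genes described here are the mouse MAP kinases (Mapk), the kinases above them in the cascade (Map2k, Map3k and Map4k) and the MAP kinase-activated protein kinases (Mapkapk). They were taken by symbol, as every gene whose name is one of these stems followed only by a number, and 38 of the 18193 genes on the array with a probe set of their own met this rule. These 38 genes had 96 probe sets, and each gene is represented by its probe set of highest mean log2 intensity over all arrays. By class there were 11 Mapk, 6 Map2k, 15 Map3k, 3 Map4k and 3 Mapkapk genes. Of the 46 genes in the RefSeq gene table whose symbols fit the same pattern, 8 are not analysed here.

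RNA was measured on 12 arrays in 4 groups of 3: conventional T cells (Tconv, CD4+CD25-) and regulatory T cells (Treg, CD4+CD25+) from the spleens of NOD mice and of B6.H2g7 mice. NOD mice develop autoimmune diabetes, and B6.H2g7 mice are B6 mice congenic for the H2g7 MHC, which NOD mice carry too, so both strains share it. Mice of all groups were 6 weeks old, no treatment is named, and each array held RNA of 3 pooled mice. Cells were enriched magnetically by CD25 and double-sorted as CD4+ cells lacking CD8a, CD11b, CD69 and B220, with the Treg gate set on CD25hi cells. The series was designed to compare the Treg to Tconv ratio between the strains. Such pools are bulk samples, in which fewer cells of a type and less RNA per cell cannot be told apart.

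MAP kinase cascades pass a signal down a chain of kinases, each phosphorylating the next: MAP4Ks and small GTPases act on MAP3Ks, which activate MAP2Ks, which activate the MAP kinases of the ERK, JNK and p38 branches. The MAP kinases then phosphorylate transcription factors and further kinases, among them the Mapkapk kinases below p38. In T cells the ERK branch is switched on by the antigen receptor through Ras, while p38 and JNK also answer cytokines and stress. The activity of these enzymes is set by phosphorylation, which RNA levels do not report.

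Mapk11 and Mapk12, which encode the p38 kinases beta and gamma, and Mapkapk2, a kinase activated by p38, are the genes of the p38 branch that were called higher in Treg on average, and their promoters are shown for that reason, so the choice rests on the outcome. Mapkapk2 was not called in NOD alone (0.18 on the log2 scale, adjusted p = 0.629 in limma), Mapk14 (p38 alpha) had an uncalled change of -0.28 in each strain, and Mapk13 (p38 delta) was too dim to judge. In the RefSeq annotation Mapk11 and Mapk12 are neighbours, with 0 protein-coding genes between them, and so are Mapk13 and Mapk14. Each sequence runs 5′ to 3′ on the gene's strand, from 250 bases before to 50 bases after the start, from RefSeq in build GRCm38.p6. The windows lie at chr15:89149557-89149856, chr15:89140654-89140953 and chr1:131097794-131098093, all on the minus strand. Capitals mark the GC box, GGGCGG or its reverse complement CCGCCC.
Mapk11: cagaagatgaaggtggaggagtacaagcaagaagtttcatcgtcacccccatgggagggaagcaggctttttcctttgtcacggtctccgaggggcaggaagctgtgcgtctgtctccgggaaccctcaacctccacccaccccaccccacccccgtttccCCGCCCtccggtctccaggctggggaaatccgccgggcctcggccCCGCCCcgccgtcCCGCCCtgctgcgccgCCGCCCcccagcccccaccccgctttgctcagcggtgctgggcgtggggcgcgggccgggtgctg
Mapk12: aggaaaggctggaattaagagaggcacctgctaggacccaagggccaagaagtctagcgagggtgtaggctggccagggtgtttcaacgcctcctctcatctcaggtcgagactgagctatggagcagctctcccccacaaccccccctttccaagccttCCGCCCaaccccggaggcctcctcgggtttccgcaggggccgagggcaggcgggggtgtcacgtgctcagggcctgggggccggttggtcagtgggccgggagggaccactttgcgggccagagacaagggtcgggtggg
Mapkapk2: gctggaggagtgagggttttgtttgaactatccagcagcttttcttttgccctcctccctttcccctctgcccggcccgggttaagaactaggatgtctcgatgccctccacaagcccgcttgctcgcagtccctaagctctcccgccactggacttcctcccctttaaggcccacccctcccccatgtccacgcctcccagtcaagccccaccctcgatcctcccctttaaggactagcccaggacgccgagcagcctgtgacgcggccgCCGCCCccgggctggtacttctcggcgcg
The Mapk11 window held 4 GC boxes, and those of Mapk12 and Mapkapk2 held 1 each. A GC box stood in 35.7% of 32851 promoter windows of the same length, and in 26 of the 45 windows found for 33 of the 38 kinase genes. The other motifs searched on both strands were AP-1 (TGANTCA, in 7.81% of all windows), CRE (TGACGTCA, 1.79%), STAT (TTCNNNGAA, 8.3%), forkhead (TGTTTAC, 3.65%) and ETS (CCGGAAG, 8.86%). None of these letters occurred in the 3 windows shown, so no match overlapped a GC box.

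Median intensities ranged from 83.9 to 88.6, and the correlation r of 2 arrays within a group from 0.983 to 0.9962. With 3 arrays a group, their number limits how precise each value is. Foxp3 and Il2ra (CD25), which define Treg, followed the labels, but the cells were sorted by CD25, so Il2ra is no separate check. Mean log2 intensities of Foxp3 were 5.68 and 5.91 in B6.H2g7 and NOD Tconv, and 11 and 11.05 in the matching Treg. Per the labels, 94%, 96% and 96% of sorted B6.H2g7 Treg and 89%, 95% and 95% of NOD Treg were Foxp3+. The log2 summed intensity of 4 B cell markers ranged from 8.94 to 9.27 in B6.H2g7 Treg, 9.03 to 9.36 in B6.H2g7 Tconv, 9.03 to 9.22 in NOD Treg and 9.17 to 9.43 in NOD Tconv. That of 5 monocyte and macrophage markers lay between 8.88 and 9.23 in every group. The log2 difference between 3' and 5' actin control probe sets, a sign of how much the RNA was shortened, ranged from 2.66 to 4.7. It was lowest on the replicate 1 array in B6.H2g7 Treg (2.66), NOD Treg (3.29) and NOD Tconv (2.97).

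Of the 38 kinase genes, 4 were higher in Treg than in Tconv and 1 was lower in B6.H2g7 mice, against 4.55% of all genes called in either direction (2.84% higher and 1.7% lower). In NOD mice 3 were higher and 0 lower, against 4.38% of all genes (2.86% higher, 1.52% lower). Averaged over both strains 5 were higher and 0 lower, against 7.5% of all genes (4.46% higher, 3.03% lower). A gene was called at an adjusted p under 0.05 in limma, with Benjamini-Hochberg adjustment over all 45037 probe sets tested. The genes called were Map3k8, Mapk11 and Mapk12 in both strains, Mapkapk2 in B6.H2g7 and on average, Mapk9 on average, and, as the one decrease, Map3k12 in B6.H2g7. The median log2 change of the 38 genes was 0.037 in B6.H2g7, -0.031 in NOD and 0.01 on average, beside 0.001, -0.021 and -0.011 over all genes. With quantile normalization the average calls were 4 higher and 1 lower.

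**Figure D1:**
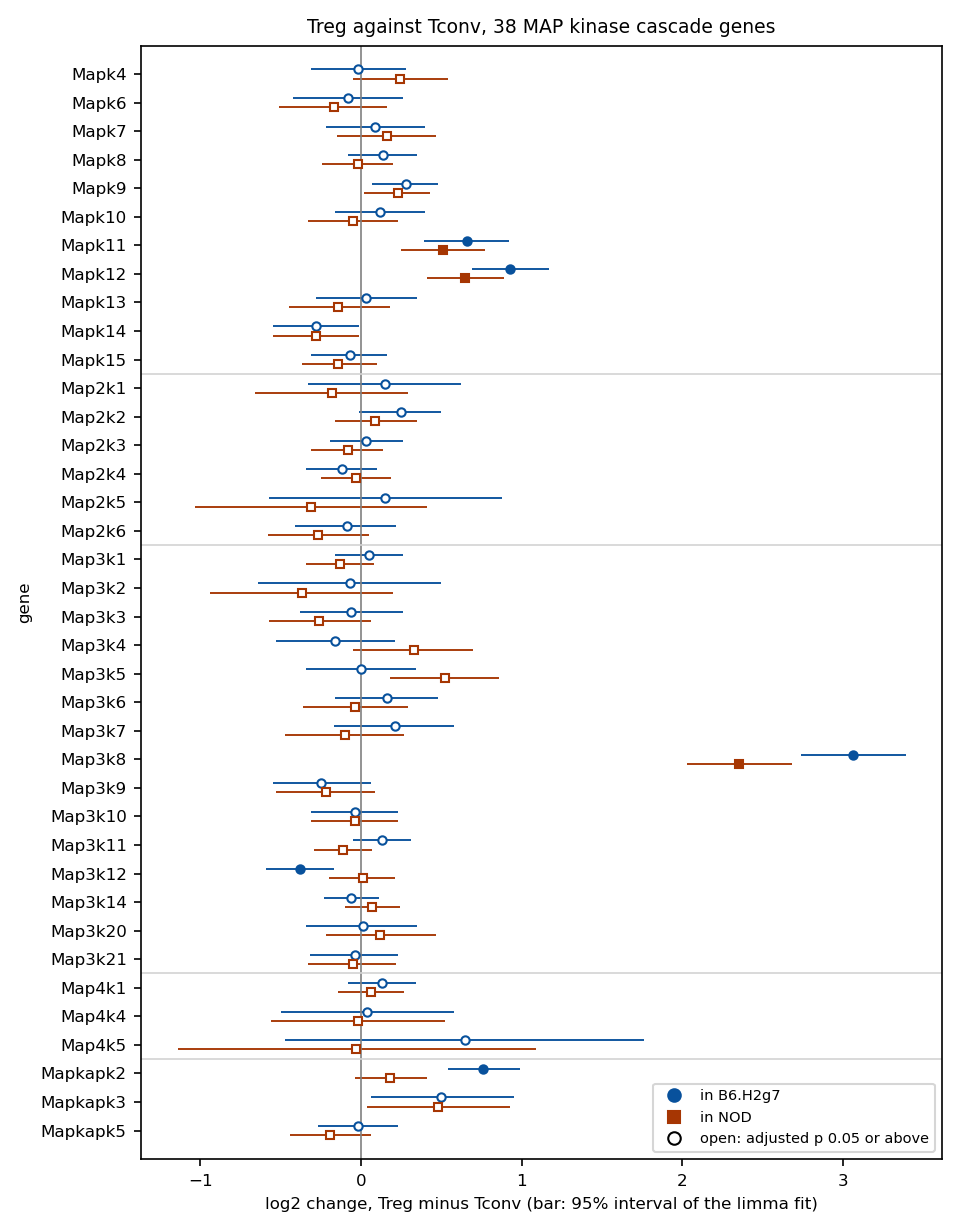
Log2 change from Tconv to Treg for 38 kinase genes, grouped by class, in B6.H2g7 (circles) and NOD (squares), with the 95% interval of the limma fit; filled symbols passed an adjusted p of 0.05. Mapk4, Mapk13 and Map3k20 were dim in all groups. Map3k8 stood at 3.06 and 2.35, and the Map2k and Map4k genes held no filled symbol.

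Among the MAP3Ks, Map3k8 had the largest change of the 38 genes. It encodes Tpl2 (Cot), a kinase that activates the MEK and ERK branch downstream of Toll-like and TNF receptors. Its log2 intensities were 6.31, 5.92 and 5.73 in B6.H2g7 Tconv, 6.51, 6.27 and 6.57 in NOD Tconv, 9.04, 8.86 and 9.24 in B6.H2g7 Treg, and 8.9, 8.66 and 8.85 in NOD Treg. Every Treg array lay above every Tconv array. The log2 change was 3.06 ± 0.15 (SE) in B6.H2g7, or 8.36-fold, with an adjusted p of 1.04e-07 in limma. In NOD it was 2.35 ± 0.15, or 5.11-fold, with an adjusted p of 1.06e-06. Map3k8 was read by 1 probe set, so no second one could be set beside it.

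The p38 kinases did not move alike. Mapk11 read 8.86, 8.74 and 8.42 in B6.H2g7 Tconv, 8.46, 8.52 and 8.58 in NOD Tconv, 9.49, 9.37 and 9.13 in B6.H2g7 Treg, and 9.04, 8.99 and 9.07 in NOD Treg. The lowest Treg array was above the highest Tconv array. The log2 change of Mapk11 was 0.66 ± 0.12 (SE) in B6.H2g7 (1.58-fold, adjusted p = 0.00795 in limma) and 0.51 ± 0.12 in NOD (1.42-fold, adjusted p = 0.0402). The NOD call did not pass without B6.H2g7 Tconv replicate 2, B6.H2g7 Treg replicate 2 or any 1 of the 6 NOD arrays, with a log2 change between 0.48 and 0.54 over the fits that left out 1 array. The average over strains was 0.58 ± 0.09, with an adjusted p of 0.000826. The second, dimmer probe set of Mapk11 changed by 0.04 in B6.H2g7 and -0.14 in NOD on the log2 scale and was not called, and the mean over both probe sets changed by 0.18 in NOD (adjusted p = 0.355).

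Mapk12, neighbour of Mapk11, read 6.51, 6.4 and 6.55 in B6.H2g7 Tconv, 6.37, 6.4 and 6.67 in NOD Tconv, 7.28, 7.45 and 7.53 in B6.H2g7 Treg, and 7.03, 7.08 and 7.29 in NOD Treg. Treg and Tconv arrays did not overlap. It rose by 0.93 ± 0.11 (SE) in B6.H2g7, or 1.91-fold, with an adjusted p of 0.000243 in limma, and by 0.65 ± 0.11 in NOD, or 1.57-fold, with an adjusted p of 0.00425. Its second probe set changed by 0.08 and 0.02, and the NOD change averaged over both probe sets was 0.34 with an adjusted p of 0.196.

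Mapk14 encodes p38 alpha, the broadly expressed form. Its log2 intensities were 11.54, 11.43 and 11.15 in B6.H2g7 Tconv, 11.58, 11.48 and 11.49 in NOD Tconv, 11.16, 11.28 and 10.85 in B6.H2g7 Treg, and 11.27, 11.15 and 11.28 in NOD Treg. The NOD groups did not overlap, the B6.H2g7 groups did, and the log2 change was -0.28 ± 0.12 (SE) in each strain. The average of -0.28 ± 0.09 had an adjusted p of 0.102 in limma. It was called in 3 of 7 alternatives: with the replicate block (-0.28, adjusted p = 0.042), array weights (-0.24, adjusted p = 0.0457) and quantile normalization (-0.26, adjusted p = 0.0433). It was also called, at -0.34 (adjusted p = 0.0321), without B6.H2g7 Tconv replicate 3, and over the other alternatives the adjusted p reached 0.345. Mapk13, p38 delta, was dim in all 4 groups: its means lay under 5.28, the 25th percentile of probe set means, where no fold is given.

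**Figure D2:**
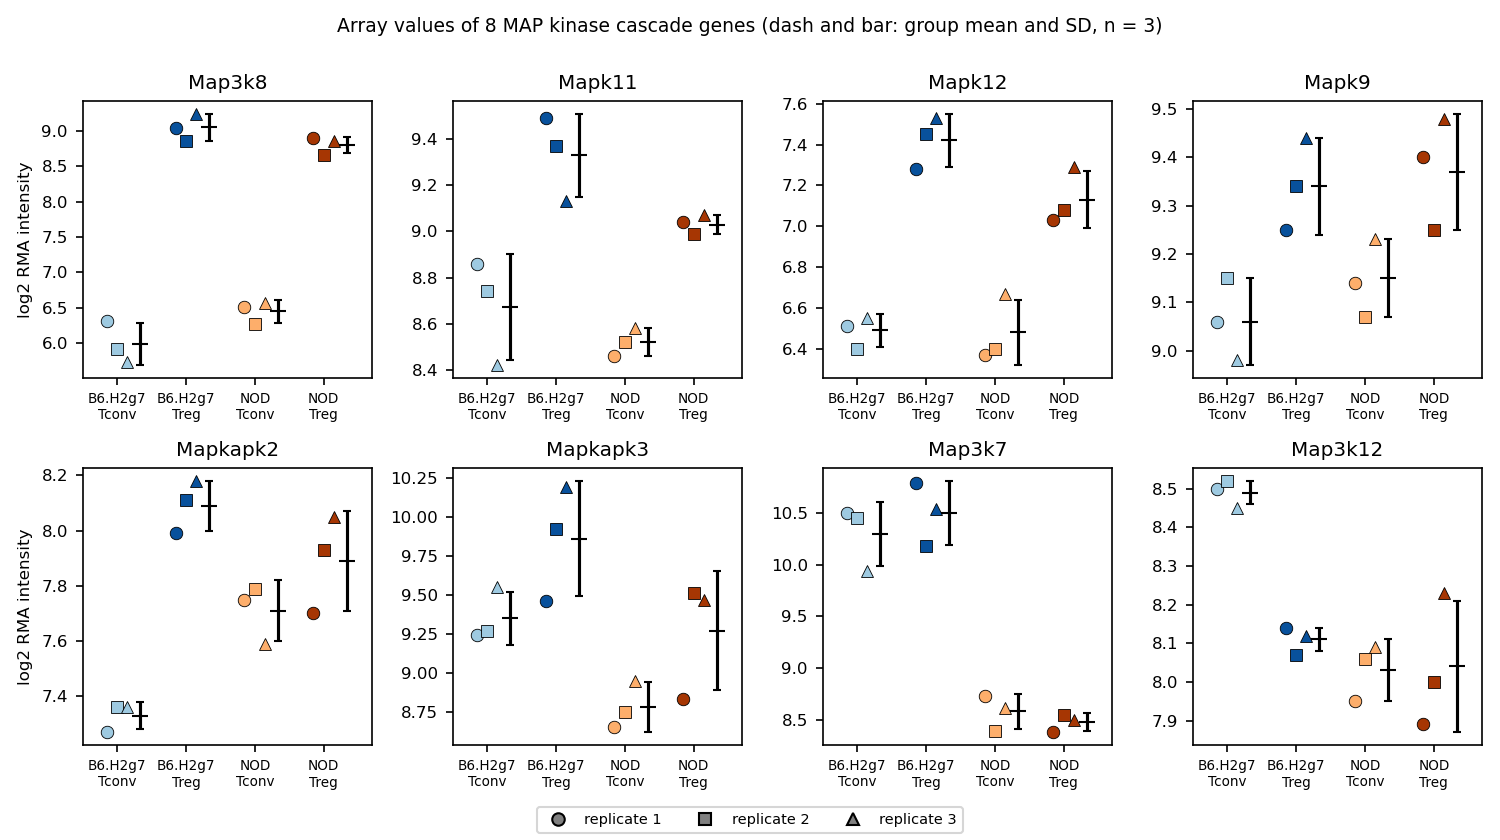
Log2 RMA intensity on each of the 12 arrays for 8 kinase genes, by group, with the replicate number as the symbol and the group mean and SD (n = 3) beside the points. Treg arrays stood above Tconv arrays for Map3k8, Mapk11, Mapk12 and Mapk9, while for Map3k7 the NOD arrays stood below the B6.H2g7 arrays.

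Of the JNK kinases, Mapk9 (JNK2) was called only on average. It read 9.06, 9.15 and 8.98 in B6.H2g7 Tconv, 9.14, 9.07 and 9.23 in NOD Tconv, 9.25, 9.34 and 9.44 in B6.H2g7 Treg, and 9.4, 9.25 and 9.48 in NOD Treg. The ranges of Treg and Tconv were close but did not overlap. The average log2 change was 0.25 ± 0.07 (SE), or 1.19-fold, with an adjusted p of 0.0419 in limma. The call held in only 2 of the 12 fits that left out 1 array, those without B6.H2g7 Treg replicate 1 and without NOD Treg replicate 2, with changes from 0.23 to 0.28 and an adjusted p of up to 0.117. The other probe sets of Mapk9 changed on average by 0.06 and -0.06, and the mean over its probe sets by 0.08 (adjusted p = 0.713). Mapk8 (JNK1) changed by 0.14 ± 0.10 in B6.H2g7 and -0.02 ± 0.10 in NOD and was not called.

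The Mapkapk kinases act below p38, where Mapkapk2 regulates the stability and translation of cytokine mRNAs. Mapkapk2 read 7.27, 7.36 and 7.36 in B6.H2g7 Tconv, 7.75, 7.79 and 7.59 in NOD Tconv, 7.99, 8.11 and 8.18 in B6.H2g7 Treg, and 7.7, 7.93 and 8.05 in NOD Treg. The B6.H2g7 groups were well apart, whereas NOD Treg overlapped NOD Tconv. The log2 change was 0.76 ± 0.10 (SE) in B6.H2g7 (1.69-fold, adjusted p = 0.000747 in limma) and 0.18 ± 0.10 in NOD (adjusted p = 0.629).

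Mapkapk3, the close relative of Mapkapk2, read 9.24, 9.27 and 9.55 in B6.H2g7 Tconv, 8.65, 8.75 and 8.95 in NOD Tconv, 9.46, 9.92 and 10.19 in B6.H2g7 Treg, and 8.83, 9.51 and 9.47 in NOD Treg. In both Treg groups the replicate 1 array was the lowest, and these arrays also had the smallest actin difference of their groups. The log2 change was 0.50 ± 0.20 (SE) in B6.H2g7 and 0.48 ± 0.20 in NOD, and the average of 0.49 ± 0.14 had an adjusted p of 0.0704 in limma. With the actin difference as a covariate the average was 0.43 ± 0.07 with an adjusted p of 0.000455. It was also called with the replicate block (0.49, adjusted p = 0.00189) and array weights (0.57, adjusted p = 0.00242). Without the 4 replicate 1 arrays it was 0.64 (adjusted p = 0.00372), and for the mean over both probe sets 0.41 (adjusted p = 0.042). In 2 of 7 alternatives the average stayed uncalled, with an adjusted p of up to 0.17. Without B6.H2g7 Treg replicate 1 it was 0.59 (adjusted p = 0.0166), and without NOD Treg replicate 1 it was 0.60 (adjusted p = 0.0119). Only these 2 of the 12 fits that left out 1 array passed. With the replicate number as a block, the NOD comparison called 5 of the 38 genes, adding Mapkapk3 at 0.48 (adjusted p = 0.0346) and Map3k5 at 0.52 (adjusted p = 0.0166).

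Map3k5 encodes ASK1, a MAP3K of the JNK and p38 branches that responds to oxidative stress. It read 10.29, 10.4 and 10.12 in B6.H2g7 Tconv, 9.86, 10.43 and 10.37 in NOD Tconv, 10.13, 10.52 and 10.18 in B6.H2g7 Treg, and 10.62, 10.89 and 10.72 in NOD Treg. NOD Treg was above all other groups on every array. Without the block the NOD change of 0.52 ± 0.16 (SE) had an adjusted p of 0.127 in limma, and the B6.H2g7 change was 0.00.

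The MAP2Ks, which carry the signal from MAP3Ks to MAP kinases, held 6 genes, of which 0 were called in any comparison and 0 had an unadjusted p under 0.05 in limma. Since between 0.11% and 7.5% of all genes were called in a comparison, a count of 0 in so few genes does not set the class apart. Map2k1 (MEK1), which activates ERK, read 10.34, 10.4 and 9.77 in B6.H2g7 Tconv, 10.81, 10.56 and 10.51 in NOD Tconv, 10.58, 10.28 and 10.09 in B6.H2g7 Treg, and 10.91, 10.05 and 10.38 in NOD Treg. The groups overlapped between Treg and Tconv in each strain, and its average change was -0.02 on the log2 scale. Of the 3 Map4k genes none was called in any of the 6 comparisons, and 0 had an unadjusted p under 0.05 in limma, with the same limit. Map4k4, a MAP4K of the JNK branch, read 10.39, 10.11 and 9.65 in B6.H2g7 Tconv, 10.36, 9.68 and 9.81 in NOD Tconv, 10.48, 9.64 and 10.15 in B6.H2g7 Treg, and 10.23, 9.71 and 9.86 in NOD Treg. Its 4 groups overlapped, with an average Treg change of 0.01.

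Map4k5 varied most within groups, with log2 intensities of 6.21, 6.42 and 5.21 in B6.H2g7 Tconv, 7.22, 6.53 and 6.38 in NOD Tconv, 7.59, 6.5 and 5.71 in B6.H2g7 Treg, and 7.76, 6.06 and 6.23 in NOD Treg. In 3 of the 4 groups the replicate 1 array was the highest, and those were the arrays with the smallest actin difference of their group. Its average log2 change was 0.31 ± 0.36 (SE) with an adjusted p of 0.839 in limma, and 0.48 ± 0.12 with an adjusted p of 0.0174 when the actin difference was a covariate. Map4k1 (HPK1), which restrains antigen receptor signalling, changed by 0.13 ± 0.10 in B6.H2g7 and 0.06 ± 0.10 in NOD.

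In all, 7 of the 38 genes (18.4%) were called in at least 1 of the 6 comparisons, against 10.6% of all genes, and 31 were called in none. Of these, 28 stayed under 0.5 on the log2 scale in all 4 comparisons of one group with another, and the other 3 were Map4k5 (0.76 at most), Mapkapk3 (0.59) and Map3k5 (0.52). Mapk4, Mapk13 and Map3k20 were dim in all 4 groups. Single dim probe sets of Map4k4, Mapk10 and Map3k2 were called where the gene's representative was not. Since these probe sets were under 5.28 in all 4 groups, no size is given for them.

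The question of the series, whether the Treg to Tconv change differs between strains, was tested as an interaction. None of the 38 genes was called for it in limma, against 0.11% of all genes (0.0605% higher in NOD and 0.0495% lower). An unadjusted p under 0.05 was found for 4 of the 38 genes, beside 904 of all 18193 genes. For Mapkapk2 the change in NOD minus that in B6.H2g7 was -0.58 ± 0.15 (SE; 95% interval -0.9 to -0.26), with an unadjusted p of 0.00181 and an adjusted p of 0.533. For Map3k8 it was -0.71 ± 0.21 (-1.17 to -0.25), with an unadjusted p of 0.00578 and an adjusted p of 0.878. Map3k12 and Map3k5 had differences of 0.39 ± 0.13 and 0.52 ± 0.22, each with an adjusted p of 0.962. Intervals for the p38 genes included 0: -0.15 (-0.52 to 0.23) for Mapk11 and -0.28 (-0.62 to 0.06) for Mapk12. The difference was below 0 for 28 of the 38 genes, with a median of -0.132, and for 10163 of 18193 genes over all, with a median of -0.027.

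Both groups entered these differences. In Tconv, Mapkapk2 was 0.38 ± 0.10 (SE) higher in NOD than in B6.H2g7, with no overlap between the arrays and an adjusted p of 0.0883 in limma. It was called there with the actin difference as a covariate (0.40, adjusted p = 0.0294) and with array weights (0.37, adjusted p = 0.0295). The replicate block called it too (0.38, adjusted p = 0.0491), but no other alternative and no fit that left out 1 array did. In Treg it was -0.20 ± 0.10. Map3k8 was 0.46 higher in NOD Tconv (adjusted p = 0.189), and 0.62 higher (adjusted p = 0.0422) without B6.H2g7 Tconv replicate 1. In Treg it was -0.25 ± 0.15.

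Between the strains, 2 of the 38 genes were lower in NOD Tconv and 0 higher, against 3.05% of all genes called (1.6% higher, 1.45% lower). In NOD Treg 1 was lower and 0 higher, against 3.33% of all genes (1.84% higher, 1.49% lower). The genes were Map3k7, in both cell types, and Map3k12, in Tconv. The median log2 change of the 38 genes was 0.081 in Tconv and -0.051 in Treg, beside 0.026 and 0.001 over all genes. With the replicate number as a block, 3 genes were called in Treg, adding Map3k5 at 0.47 (adjusted p = 0.033) and Mapkapk3 at -0.59 (adjusted p = 0.0103).

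**Figure D3:**
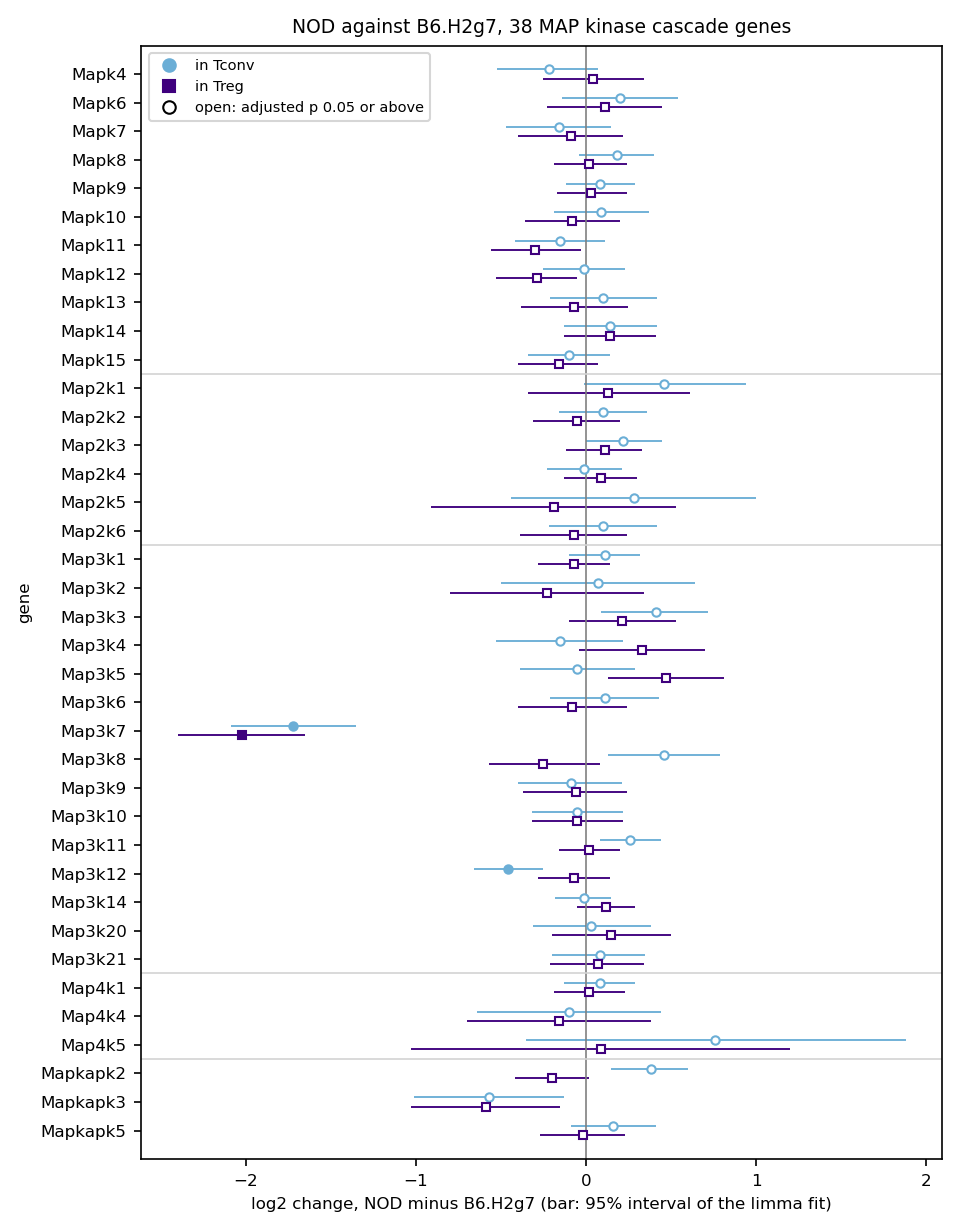
Log2 difference of NOD minus B6.H2g7 for 38 kinase genes, grouped by class, in Tconv (circles) and Treg (squares), with the 95% interval of the limma fit; filled symbols passed an adjusted p of 0.05. Map3k7 lay at -1.72 and -2.02, and Map3k12 was filled in Tconv only, at -0.46.

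Map3k7 encodes TAK1, which activates both NF-kappaB and the JNK and p38 branches below antigen and cytokine receptors. Its representative probe set, 1455441_at, read 10.5, 10.45 and 9.94 in B6.H2g7 Tconv, 8.73, 8.39 and 8.61 in NOD Tconv, 10.79, 10.18 and 10.54 in B6.H2g7 Treg, and 8.38, 8.55 and 8.5 in NOD Treg. All NOD arrays lay below all B6.H2g7 arrays. The log2 difference was -1.72 ± 0.17 (SE) in Tconv (3.3-fold lower, adjusted p = 6.44e-05 in limma) and -2.02 ± 0.17 in Treg (4.07-fold lower, adjusted p = 1.43e-05).

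The 6 probe sets of Map3k7 split. A second one, 1447801_x_at, read 6.17, 6.5 and 5.66 in B6.H2g7 Tconv and 4.31, 4.33 and 4.41 in NOD Tconv, and 6.07, 5.77 and 5.97 in B6.H2g7 Treg and 4.05, 4.66 and 4.22 in NOD Treg. It was lower in NOD in Tconv (adjusted p = 0.000154 in limma) and in Treg (adjusted p = 0.000272), but it was dim in both NOD groups, so no size is given. The other 4 were not called: the log2 differences in Tconv and Treg were 0.04 and -0.25 (1419988_at), -0.13 and -0.14 (1449693_at) and -0.01 and 0.21 (1425795_a_at), and 1426627_at was dim in every group. A strain difference of Map3k7 was thus called in 2 of its 6 probe sets. Of these, only 1455441_at was measured above the dim level in both strains. Whether the difference read by 1455441_at reflects the level of Map3k7 RNA was not tested. The mean over all 6 differed by -0.57 in Tconv and -0.62 in Treg, and both were called. That mean includes the 2 called probe sets, so it is not a separate check.

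Mapk6 and Mapk14 each had a strain difference called in 1 probe set, which was not the representative one. Whether these differences reflect the level of the gene's RNA was not tested. Mapk6 encodes ERK3, an atypical MAP kinase. Its probe set 1429963_at read 8.97, 8.77 and 8.12 in B6.H2g7 Tconv, 6.57, 6.27 and 6.08 in NOD Tconv, 9.32, 8.13 and 8.13 in B6.H2g7 Treg, and 6.27, 6.16 and 6.05 in NOD Treg. The strains did not overlap, with log2 differences of -2.31 ± 0.29 (SE; adjusted p = 0.000454 in limma) in Tconv and -2.37 ± 0.29 (adjusted p = 0.000342) in Treg. The representative of Mapk6 differed by 0.20 and 0.11, and the other two by 0.00 and -0.06 and by 0.05 and 0.12, none of them called. The mean over the 4 probe sets of Mapk6, which includes 1429963_at, differed by -0.52 (adjusted p = 0.00562 in limma) and -0.55 (adjusted p = 0.00318).

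For Mapk14 the probe set 1442364_at read 7.55, 7.36 and 7.66 in B6.H2g7 Tconv, 8.8, 8.39 and 8.51 in NOD Tconv, 7.22, 7.44 and 7.54 in B6.H2g7 Treg, and 8.34, 8.36 and 8.4 in NOD Treg. It was higher in NOD on every array, by 1.04 ± 0.12 (SE; adjusted p = 0.000281 in limma) in Tconv and 0.97 ± 0.12 (adjusted p = 0.000469) in Treg. The representative of Mapk14 differed by 0.14 in both, and 1459617_at by -0.47 (adjusted p = 0.208) and -0.57 (adjusted p = 0.086). No probe set of Mapk14 other than 1442364_at was called.

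Map3k12 encodes DLK, a MAP3K of the JNK branch best known from injured neurons. Its representative, 1417115_at, read 8.5, 8.52 and 8.45 in B6.H2g7 Tconv, 7.95, 8.06 and 8.09 in NOD Tconv, 8.14, 8.07 and 8.12 in B6.H2g7 Treg, and 7.89, 8 and 8.23 in NOD Treg. B6.H2g7 Tconv stood above the other 3 groups, which overlapped. The log2 difference of NOD from B6.H2g7 in Tconv was -0.46 ± 0.09 (SE; 1.37-fold lower, adjusted p = 0.019 in limma), and that of Treg from Tconv in B6.H2g7 was -0.38 ± 0.09 (adjusted p = 0.0495). In Treg the strains differed by -0.07, and in NOD Treg differed from Tconv by 0.01.

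A second probe set of Map3k12, 1438908_at, went the other way. It read 6.11, 6.14 and 5.71 in B6.H2g7 Tconv, 7.1, 6.95 and 6.76 in NOD Tconv, 6.64, 6.06 and 6.15 in B6.H2g7 Treg, and 7.01, 7.13 and 7.05 in NOD Treg. All NOD arrays were above all B6.H2g7 arrays, by 0.94 ± 0.16 (SE; adjusted p = 0.00422 in limma) in Tconv and 0.78 ± 0.16 (adjusted p = 0.0154) in Treg, so the direction for Map3k12 rests on the probe set, and the mean over its probe sets differed by 0.22 in Tconv. Whether either probe set reflects the level of Map3k12 RNA was not tested. The strain call of 1417115_at in Tconv passed 8 of the 12 fits that left out 1 array, and was lost without replicate 1 or 2 of either Tconv group (adjusted p up to 0.0993). The Treg call in B6.H2g7 passed 2 of the 12 (adjusted p up to 0.168), those without NOD Treg replicate 1 and without NOD Treg replicate 3.

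**Figure D4:**
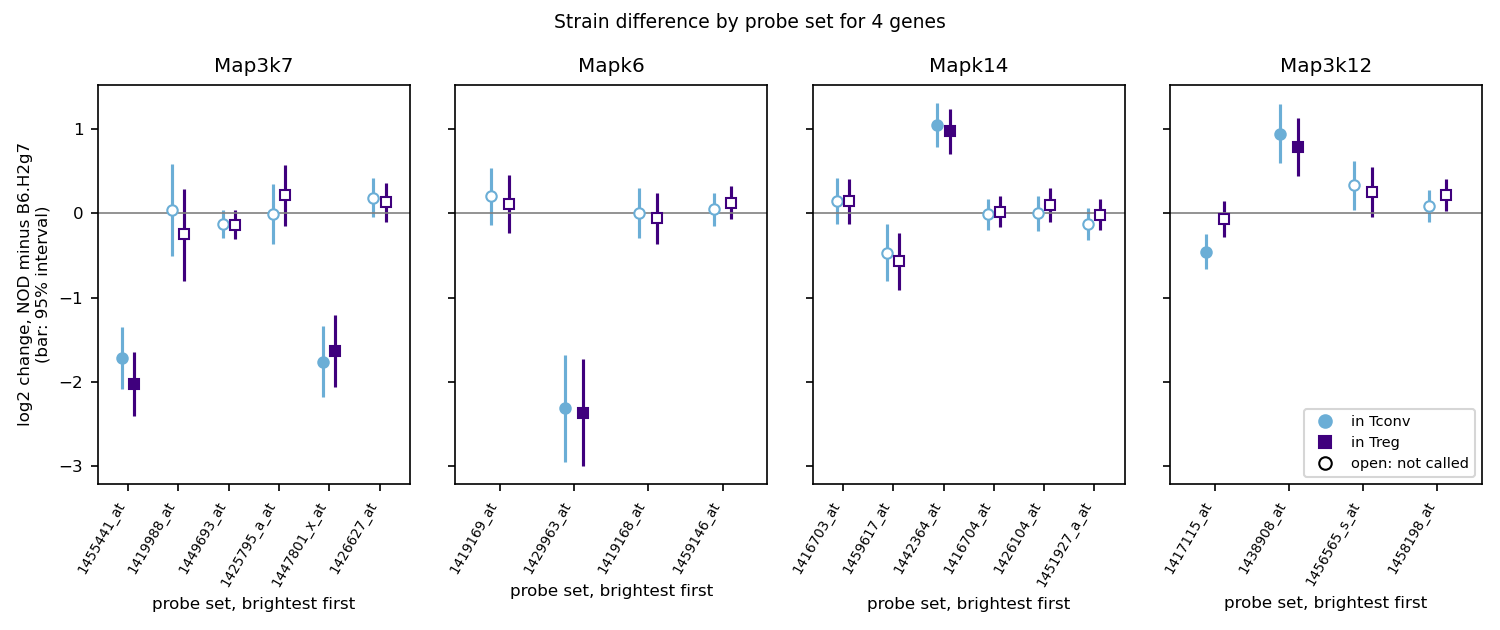
Log2 difference of NOD minus B6.H2g7 for each probe set of Map3k7, Mapk6, Mapk14 and Map3k12, brightest first, in Tconv (circles) and Treg (squares), with the 95% interval of the limma fit; filled symbols were called. Values of 1447801_x_at in NOD and of the last probe set of Map3k7, Mapk14 and Map3k12 are dim, so the size of their differences is uncertain. In Map3k12 the brightest probe set lay at -0.46 in Tconv and the next at 0.94.

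The genes around the kinases were taken from 6 lists of known partners, and the comparison is Treg against Tconv averaged over strains. Together they held 78 measured genes, of which 7 were higher (8.97%) and 4 lower (5.13%), beside 4.46% and 3.03% of all genes, and a count within 1 list is too small to set that list apart. Of 10 MAP kinase phosphatases, which switch MAP kinases off, 2 were higher and 1 was lower. Dusp4 rose by 3.51 ± 0.13 (SE; adjusted p = 3.63e-09 in limma) and Dusp1 by 0.95 ± 0.14 (adjusted p = 0.000974), while Dusp6, which acts on ERK, fell by 0.59 ± 0.12 (adjusted p = 0.00656). The mean log2 intensity of Dusp4 was 5.43 ± 0.07 and 6.08 ± 0.40 (SD, n = 3) in B6.H2g7 and NOD Tconv, and 9 ± 0.09 and 9.54 ± 0.31 in the matching Treg. The median change of the phosphatases was 0.12, beside -0.011 over all genes.

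Of 16 Ras GTPase activating proteins and Sprouty family inhibitors, which damp the input to the cascade, 3 were higher and 1 was lower, with a median of 0.04. Spry1 rose by 1.99 ± 0.10 (SE; adjusted p = 4.81e-08 in limma) and Rasa1 by 0.48 ± 0.09 (adjusted p = 0.00566). The third was Dab2ip at 0.29, and Rasal3 fell by 0.49. Of 8 Ras exchange factors, which load Ras with GTP, 0 were higher and 1 was lower: Rasgrp2 fell by 0.83 ± 0.11 (adjusted p = 0.000338). Sos1 was at -0.31 (adjusted p = 0.137), and the median of the 8 was -0.15.

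None of 6 Ras GTPases and RAF kinases was called in limma, with a median of -0.08, and 1 had an unadjusted p under 0.05. Nras was at -0.37 (adjusted p = 0.311) and Rras2 at -0.15 (adjusted p = 0.471). Of 19 scaffolds and activating subunits, only Gadd45g, a stress-induced activator of the MAP3K Map3k4, was called, at 0.99 ± 0.15 (SE; adjusted p = 0.000861). Gadd45b was at 0.31 (adjusted p = 0.292), and the median was 0.01. Of 19 downstream kinases and transcription factors, the ETS factor Elk3 rose by 0.39 ± 0.07 (adjusted p = 0.00353) and the ERK-activated kinase Rps6ka3 fell by 0.57 ± 0.12 (adjusted p = 0.0135), with a median of -0.02.

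Between the strains, 5 of the 78 genes (6.41%) were higher in NOD Tconv and 0 lower, beside 1.6% and 1.45% of all genes. In NOD Treg 3 (3.85%) were higher and 0 lower, beside 1.84% and 1.49%. The Tconv calls were Dusp6 at 1.25 ± 0.16 (SE; adjusted p = 0.000571 in limma), Dusp7 at 0.79, Spry1 at 0.58, the scaffold Lamtor3 at 0.58 and Elk3 at 0.49. The Treg calls were Spry1 at 0.95 ± 0.14 (adjusted p = 0.00161), Dusp6 at 0.92 and Lamtor3 at 0.70. None of the genes in the 6 lists was called in limma for the difference between strains in the Treg to Tconv change, and 1, a gene of the downstream list, had an unadjusted p under 0.05. These strain calls were chosen for mention after their values were seen.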

How the data were processed

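The deposited table gives 1 linear intensity per probe set and array, which the authors made with RMA, as the submitters' processing notes and the series text say. No source used here gives the RMA version or a genome build. RNA was amplified in 2 rounds, per the labels' protocols, which can shorten it. Of 45101 probe sets, 64 controls were left out, and 34945 name 1 gene in the platform annotation, giving 18193 genes. Log2 was taken with no further step or filter, and no detection calls are given.

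Group means were fitted with limma 3.58.1 in R 4.3.3 (lmFit, eBayes) on all 12 arrays, which shared 1 spread, for 6 comparisons. The fit was tested on simulated data with planted changes. A planted log2 change of 0.5 was called in 28% of 50 probe sets for Treg against Tconv in B6.H2g7. It was called in 68% for the averaged change and 8% for the strain difference. For a planted change of 1 these shares were 80%, 92% and 60%. Changes near 0.5 can thus be missed, above all for the strain difference. Nearly all simulated probe sets held no change, which bears on the adjusted p, so these shares may not carry over to the data. Exact permutation of 3 arrays against 3 has a smallest p of 0.1 and was not used. Pools of a group are independent, per the series text. Alternatives are in the closing section.

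The members and lists were chosen with earlier results of these data known. The text names every kinase gene called in any comparison, the gene of highest mean in each class, genes whose probe sets disagree in calls, and the 2 genes of smallest p in each partner list for the averaged Treg change. Other genes were named after their values were seen.

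Same-numbered arrays were checked for pairing by correlating their deviations from the group means. Among groups compared directly, every correlation was over 0.1 for NOD Tconv with NOD Treg (0.564, 0.315 and 0.401). The same held for B6.H2g7 Treg with NOD Treg (0.671, 0.338 and 0.302). For these comparisons the value with the replicate block is given where it changes a call. Replicate 3 of B6.H2g7 Treg, however, correlated more with a differently numbered NOD Treg array. NOD Tconv with B6.H2g7 Treg, which share neither strain nor cell type, gave 0.551, 0.426 and 0.279. The check therefore does not establish what the replicate number stands for.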

Additional observations from a re-analysis of the deposited data

How the results depend on the processing

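The number of kinase genes called was recomputed under 8 alternatives (7 for the averaged change) and 12 fits that left out 1 array each. With the replicate number as a block it was 5 in place of 3 for Treg in NOD, 4 in place of 2 for the strains in Tconv, and 3 in place of 1 in Treg. For the averaged change the block added Mapk14 and Mapkapk3. Same-numbered arrays did not all correlate between B6.H2g7 Tconv and B6.H2g7 Treg (correlations 0.521, -0.08 and 0.504). The same held between the Tconv groups (0.436, -0.041 and 0.199). The block added Mapkapk3 to both of these comparisons and Mapkapk2 to the second. With the actin difference as a covariate it was 8 in place of 5 for the averaged change, 4 for the strains in Tconv and 2 in Treg. Array weights gave 2 for the strains in Treg. The mean over the probe sets of a gene gave 2 there and 1 for Treg in NOD, and turned Map3k12 in Tconv to 0.22. A fit of only the arrays compared gave 3 for Treg in B6.H2g7, with Mapk11 at an adjusted p of 0.0839 in limma. Without the 4 replicate 1 arrays, 1 gene was called for the strains in Tconv, Map3k12 there was -0.41 (adjusted p = 0.183) and Mapk11 in NOD was 0.48 (adjusted p = 0.158). Leaving out 1 array gave 4 to 5 genes for Treg in B6.H2g7, 2 to 3 in NOD, 4 to 6 on average, 1 to 2 for the strains in Tconv, 1 in Treg and 0 for the strain difference. The calls of Map3k8 and Map3k7 passed every one of these alternatives and left-out arrays. For neither gene is the mean over probe sets a separate check. Map3k8 has only 1 probe set, and the mean of Map3k7 includes its called ones. The Map3k7 call is that of 1455441_at, and whether it reflects the level of the gene's RNA was not tested. Mapk14 on average was called with the block, array weights and quantile normalization. The cause of these changes was not tested. Quantile normalization moved the probe sets of an array by a median of at most 0.043 on the log2 scale, in either direction.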

Other observations

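A further 4 probe sets name both Mapkapk5 and Adam1a and were left out of the 38 genes. None was called in limma in any of the 6 comparisons or had an unadjusted p under 0.05, and their log2 changes lay between -0.2 and 0.28.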
